A study of Mus musculus with 12 samples.

Results

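Sterol and fatty acid synthesis genes that are known targets of the SREBP transcription factors were examined across the 4 groups of the study. The list held 36 genes, chosen by name, and 32 of them had a transcript cluster under their symbol among the 19505 genes named on the array. They were described as 16 measured sterol synthesis enzymes (of 18 listed), 10 fatty acid enzymes (of 11) and 6 sterol regulators and transport genes (of 7). Acat2, Tm7sf2, Scd2 and Srebf1 had no cluster under their symbol and were not analysed here. The cultures held TSC1 cells of FVB-NJ mice with the genotype S100β-v-erbB/p53-/-, in which the S100β promoter drives the oncogene v-erbB, a truncated relative of the epidermal growth factor receptor used to model glioma. For 16 h they were kept in hypoxia with BFA (brefeldin A), in hypoxia with EHT-1864, in hypoxia with the solvent DMSO, or in normoxia with DMSO, with 3 Clarion S arrays per group. All 4 groups carry v-erbB and lack p53, so no comparison here speaks to either, and both compounds were given only in hypoxia. The EHT-1864 dose was 1 µM, while that of BFA is 1 µM by the protocol and 0.1 µM by the title of the study, a conflict that was not settled.

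Sterol regulatory element-binding proteins (SREBPs) are made as membrane proteins of the endoplasmic reticulum (ER), where SCAP holds them and INSIG proteins retain SCAP when sterols are plentiful. When sterols run low, SCAP escorts SREBP to the Golgi, where proteases release the part that enters the nucleus and turns on genes of cholesterol and fatty acid synthesis. SREBP-2, the product of Srebf2, acts mainly on cholesterol genes, and SREBP-1 mainly on fatty acid genes. Brefeldin A disturbs traffic between ER and Golgi, since it blocks proteins that load ARF GTPases with GTP. EHT-1864 inhibits Rac GTPases. Glial cells and gliomas make most of their own cholesterol, since lipoproteins of the blood hardly enter the brain.

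Values are log2 signals, made by RMA, and each gene stands by its own cluster. A difference is in log2 units, ± gives its standard error from limma, n is 3 arrays per group throughout, and a gene is called where the adjusted p over all 22206 clusters is under 0.05. The floor is the 95th percentile of the neg control rows of an array, and it averaged 6.49 with BFA, 6.01 with EHT-1864, 5.61 with DMSO in hypoxia and 5.61 in normoxia. Of the 32 members, 31 lay above the floor on at least 3 arrays and 24 on all 12. Shares called among clusters above the floor come from a separate fit of the 10991 clusters above it on at least 3 arrays. There p was adjusted over those clusters only, which is a laxer rule. For EHT-1864 against DMSO in hypoxia, 4005 clusters were called lower there, against 3874 in the fit of all clusters. Member counts come from the fit of all clusters unless said otherwise. The arrays of the compounds differed from the DMSO arrays as a whole. The hybridization controls, added to each sample before hybridization, averaged 10.93 with BFA, 10.25 with EHT-1864, 9.76 with DMSO in hypoxia and 9.85 in normoxia, and 65.2%, 57.6%, 51.7% and 52.1% of clusters lay below the floor in that order of groups. The SD over all clusters was 2.28, 2.41, 2.51 and 2.48 in the same order. Calls were therefore also made under 3 other normalizations (quantile, median subtraction, and centring with scaling to equal spread). The spread made equal is the median absolute deviation from the median of each array, which need not make the SDs equal. Of 11 measured markers of glial progenitors and glioma stem cells, 9 with BFA and 10 in each other group were above the floor on all 3 arrays, with array means of 7.67 to 7.73 for BFA, 8.95 to 9.12 for EHT-1864, 9.82 to 9.88 for DMSO in hypoxia and 9.81 to 9.90 in normoxia. All 5 endothelial markers were below the floor in every group, as were 5 of 6 markers of microglia and of fibroblasts and 4 or 5 of 6 of neurons. The part of these shifts in the results below was not tested.

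The promoters of 6 members are shown because these genes mark the range of the response: Hmgcs1, Hsd17b7 and Nsdhl fell by large amounts with BFA, Insig1 and Fads2 by a small and a large amount, and Fasn fell with EHT-1864 but was not called with BFA. Each window runs from 250 bases before to 50 bases after the annotated start (RefSeq, GRCm38.p6), 5′ to 3′ along the gene. Capitals mark CCAAT on either strand (the box bound by NF-Y, a partner of SREBP, read as ATTGG on the other strand) and CACNCCAC on either strand (the core of the sterol regulatory element).
Hmgcs1 (chr13:119690101-119690400, forward strand): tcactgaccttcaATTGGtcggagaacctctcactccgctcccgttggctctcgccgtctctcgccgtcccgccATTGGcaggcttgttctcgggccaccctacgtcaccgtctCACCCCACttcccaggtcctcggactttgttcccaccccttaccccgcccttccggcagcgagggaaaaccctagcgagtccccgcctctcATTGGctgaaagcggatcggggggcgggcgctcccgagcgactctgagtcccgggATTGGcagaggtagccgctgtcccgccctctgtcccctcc
Hsd17b7 (chr1:169969156-169969455, reverse strand): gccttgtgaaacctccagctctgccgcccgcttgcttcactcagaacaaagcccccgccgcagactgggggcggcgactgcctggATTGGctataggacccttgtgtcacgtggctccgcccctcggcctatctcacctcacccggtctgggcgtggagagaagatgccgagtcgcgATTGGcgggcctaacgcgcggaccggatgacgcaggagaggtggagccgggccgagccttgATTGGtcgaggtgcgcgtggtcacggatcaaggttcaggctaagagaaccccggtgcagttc
Nsdhl (chrX:72918271-72918570, forward strand): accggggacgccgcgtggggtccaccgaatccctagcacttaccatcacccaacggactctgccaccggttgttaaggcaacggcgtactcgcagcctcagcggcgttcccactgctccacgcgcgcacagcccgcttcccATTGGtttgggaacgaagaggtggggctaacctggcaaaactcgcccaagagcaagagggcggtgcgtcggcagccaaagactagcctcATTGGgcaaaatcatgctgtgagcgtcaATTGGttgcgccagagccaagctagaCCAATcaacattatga
Insig1 (chr5:28071162-28071461, forward strand): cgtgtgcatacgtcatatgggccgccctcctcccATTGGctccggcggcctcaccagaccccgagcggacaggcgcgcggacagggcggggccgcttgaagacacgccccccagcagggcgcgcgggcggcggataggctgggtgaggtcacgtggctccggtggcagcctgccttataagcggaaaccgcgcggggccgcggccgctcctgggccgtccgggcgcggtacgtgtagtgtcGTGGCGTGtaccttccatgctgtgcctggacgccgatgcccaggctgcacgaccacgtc
Fads2 (chr19:10101454-10101753, reverse strand): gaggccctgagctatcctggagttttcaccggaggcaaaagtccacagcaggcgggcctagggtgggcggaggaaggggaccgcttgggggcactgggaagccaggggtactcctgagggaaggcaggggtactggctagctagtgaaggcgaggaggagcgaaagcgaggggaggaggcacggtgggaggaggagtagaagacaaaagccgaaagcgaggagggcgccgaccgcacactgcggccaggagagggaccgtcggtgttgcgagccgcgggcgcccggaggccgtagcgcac
Fasn (chr11:120824498-120824797, reverse strand): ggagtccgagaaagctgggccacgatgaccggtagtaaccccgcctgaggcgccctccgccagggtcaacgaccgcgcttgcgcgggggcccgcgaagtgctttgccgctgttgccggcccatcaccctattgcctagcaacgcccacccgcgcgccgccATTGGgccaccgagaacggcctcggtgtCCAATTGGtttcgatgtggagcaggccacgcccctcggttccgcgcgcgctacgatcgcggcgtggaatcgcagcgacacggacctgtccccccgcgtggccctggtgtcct

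Of the 32 measured members, 26 had a window in the RefSeq table, 5 of them with several windows, and 7 letter patterns were searched on both strands. CCAAT was present in all 13 sterol enzymes with a window, in 5 of 8 fatty acid enzymes and in 3 of 5 regulators and transport genes, against 42.2% of the 15691 genes on the array with a window. The GC box GGGCGG, bound by Sp1, was present in 12 of 13 sterol enzymes, 4 of 8 fatty acid enzymes and 5 of 5 regulators, against 51.2% of genes. TCACNCCAC, the sterol regulatory element with any base at its N, was present in Hmgcs1, against 1.43% of genes, and its core CACNCCAC, which every such match holds, in Hmgcs1 and Insig1, against 7.2%. TCANNCCAC, which also covers it, was present in Hmgcs1, Acly and Elovl5, against 4.59% of genes. CACGTG, the E-box, was present in 7 members (Hsd17b7, Sc5d, Dhcr7, Elovl5, Insig1, Scap and Abca1), against 9.26%, and TCACNTGA in Insig2, against 4.83%. Hmgcs1 held 4 CCAAT matches, with the sterol element match 137 bases before the start between those at 176 and 45 bases before it. Hsd17b7 held 3 CCAAT matches, at 165, 73 and 12 bases before the start, and Nsdhl held 4. Fasn held 3, at 90, 62 and 59 bases before the start, where the last pair overlap, and Fads2 held none. A match describes letters in these windows only.

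**Figure D1:**
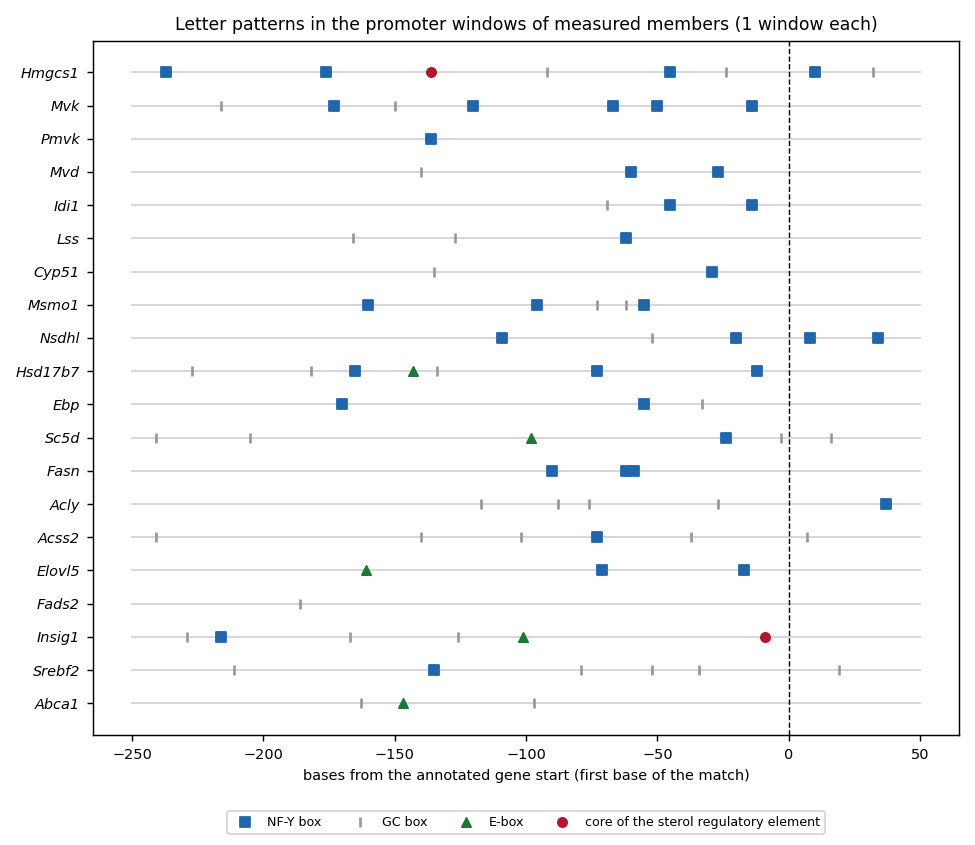
Positions of 4 letter patterns (x axis, bases from the annotated gene start to the first base of the match; either strand) in the promoter windows of the measured members with matches in a single window (rows; sterol enzymes from the top, then fatty acid enzymes, then regulators and transport). Members with a window but no match to any searched pattern are not drawn. Blue squares are NF-Y boxes (CCAAT), grey ticks GC boxes, green triangles E-boxes and red circles the core of the sterol regulatory element, which appears in Hmgcs1 and Insig1.

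Hypoxia was first compared with normoxia, both with DMSO. Of the 32 members, 2 were called higher in hypoxia and none lower. Over all clusters, 2.11% were called higher and 0.563% lower. The 2 genes were Me1, cytosolic malic enzyme, which supplies NADPH for lipid synthesis, and Hmgcs1, HMG-CoA synthase, an early enzyme of the mevalonate pathway.

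Me1 read 9.74, 9.80 and 9.78 with DMSO in hypoxia, against 8.29, 8.30 and 8.52 in normoxia. The groups did not overlap, and the difference was 1.40 ± 0.12 (2.64-fold higher, limma adjusted p = 1.02e-05), called under all 4 normalizations and whichever array was left out. Hmgcs1 read 11.39, 11.40 and 11.33 in hypoxia, against 10.88, 10.90 and 10.87 in normoxia. Its groups did not overlap either, and the difference was 0.49 ± 0.12 (limma adjusted p = 0.0461). The Hmgcs1 call was lost in 9 of 12 removals of 1 array, namely any DMSO array (either oxygen level) or any EHT-1864 array, with adjusted p up to 0.166, and it was lost under median subtraction and equal-spread scaling.

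None of the other sterol enzymes was called. The median difference of the 16 was 0.23, against -0.03 over all clusters, and 13 of the 16 differences were above 0. Lss, lanosterol synthase, had the largest, 0.61 ± 0.16 (adjusted p = 0.0685), with arrays from 9.79 to 10.17 in hypoxia, against 9.30 to 9.49 in normoxia. It passed the threshold when BFA array 1 (adjusted p = 0.0226) or BFA array 2 was left out of the shared estimate of spread. Where clusters had to be above the floor on at least 3 arrays, 6 sterol enzymes were called, and 11.3% of the 10991 clusters tested were called in either direction. The fatty acid enzymes had a median of -0.03, and Me1 was the only one of them that was called. The regulators and transport genes had a median of 0.18 with none called.

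Next, BFA was compared with DMSO in hypoxia. All 16 measured sterol enzymes were called lower with BFA, and none higher. Over all clusters, 24.6% were called lower and 26.1% higher. In the separate fit of the 10991 clusters above the floor on at least 3 arrays, 47.9% were called lower. The 16 differences ran from -3.02 to -0.48 with a median of -1.12, against 0.11 over all clusters and -0.28 over those above the floor. Hsd17b7, the lowest, and Mvk lay below the floor with BFA, and with both at the bounds given below the median was -0.997. Fewer cells of a type and less RNA per cell cannot be told apart in such bulk samples. With centring and scaling to equal spread, 10 of the 16 were called lower and none higher, the median was -0.44, and Lss, Msmo1, Ebp and Sc5d turned to differences of 0.32, 0.10, 0.13 and 0.14. Under that scaling 19.1% of all clusters were called lower.

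The 10 sterol enzymes called lower under all 4 normalizations were Hmgcs1, Mvk, Pmvk, Idi1, Fdps, Fdft1, Sqle, Nsdhl, Hsd17b7 and Dhcr7. Hmgcs1 read 8.89, 9.16 and 9.20 with BFA, 10.35, 10.21 and 10.12 with EHT-1864, and 11.39, 11.40 and 11.33 with DMSO in hypoxia. No group overlapped another, and the fall with BFA was -2.29 ± 0.12 (4.89-fold, adjusted p = 1.72e-08). Nsdhl, a sterol dehydrogenase that helps remove methyl groups, read 8.06, 8.43 and 8.46 with BFA, 10.26, 10.31 and 10.03 with EHT-1864, 10.69, 10.68 and 10.67 with DMSO in hypoxia and 10.24, 10.35 and 10.25 in normoxia. Its fall with BFA was -2.36 ± 0.13 (5.14-fold, adjusted p = 2.92e-08), and the BFA arrays stood below all others.

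Hsd17b7, the ketosteroid reductase that works next to Nsdhl, read 5.21, 5.12 and 5.34 with BFA, all below the floor, against 7.57, 7.72 and 7.54 with EHT-1864, 8.34, 8.11 and 8.26 with DMSO in hypoxia and 8.01, 8.02 and 8.02 in normoxia. It was at least 3.36-fold lower with BFA than with DMSO in hypoxia (limma adjusted p = 1.87e-09). Such a bound sets the brighter group's mean against the floor, or the measured value where that is higher, on the arrays of the dimmer group. Mvk, mevalonate kinase, was also below the floor on the 3 BFA arrays, and it was at least 1.71-fold lower (adjusted p = 4.97e-05).

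Dhcr7, which makes the last reduction to cholesterol in 1 branch of the pathway, ranged from 7.61 to 8.23 with BFA, against 10.17 to 10.22 with DMSO in hypoxia. Its fall was -2.19 ± 0.17. Idi1, the isopentenyl diphosphate isomerase, fell by 1.97 ± 0.14, and 1 of 3 BFA arrays had it above the floor. Sqle, squalene epoxidase, a rate-setting oxygen-using step, fell by 1.69 ± 0.14. Fdft1, squalene synthase, read 8.97, 8.97 and 9.06 with BFA, 10.30, 10.28 and 10.21 with EHT-1864, 10.36, 10.19 and 10.13 with DMSO in hypoxia and 9.90, 9.89 and 9.87 in normoxia, and it fell with BFA by 1.23 ± 0.11. Fdps, farnesyl diphosphate synthase, and Pmvk, phosphomevalonate kinase, fell by 1.01 ± 0.14 and 0.95 ± 0.12.

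The calls of the remaining 6 sterol enzymes were not made under every normalization. Cyp51, the lanosterol demethylase, differed by -0.99 ± 0.11, Mvd, mevalonate diphosphate decarboxylase, by -0.74 ± 0.11 and Sc5d, a sterol desaturase, by -0.65 ± 0.12. Msmo1, a methylsterol oxidase, differed by -0.59 ± 0.11, Lss by -0.56 ± 0.16 and Ebp, the sterol isomerase, by -0.48 ± 0.12. The Lss call was lost when array 1 of DMSO in hypoxia was left out (adjusted p = 0.0509).

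**Figure D2:**
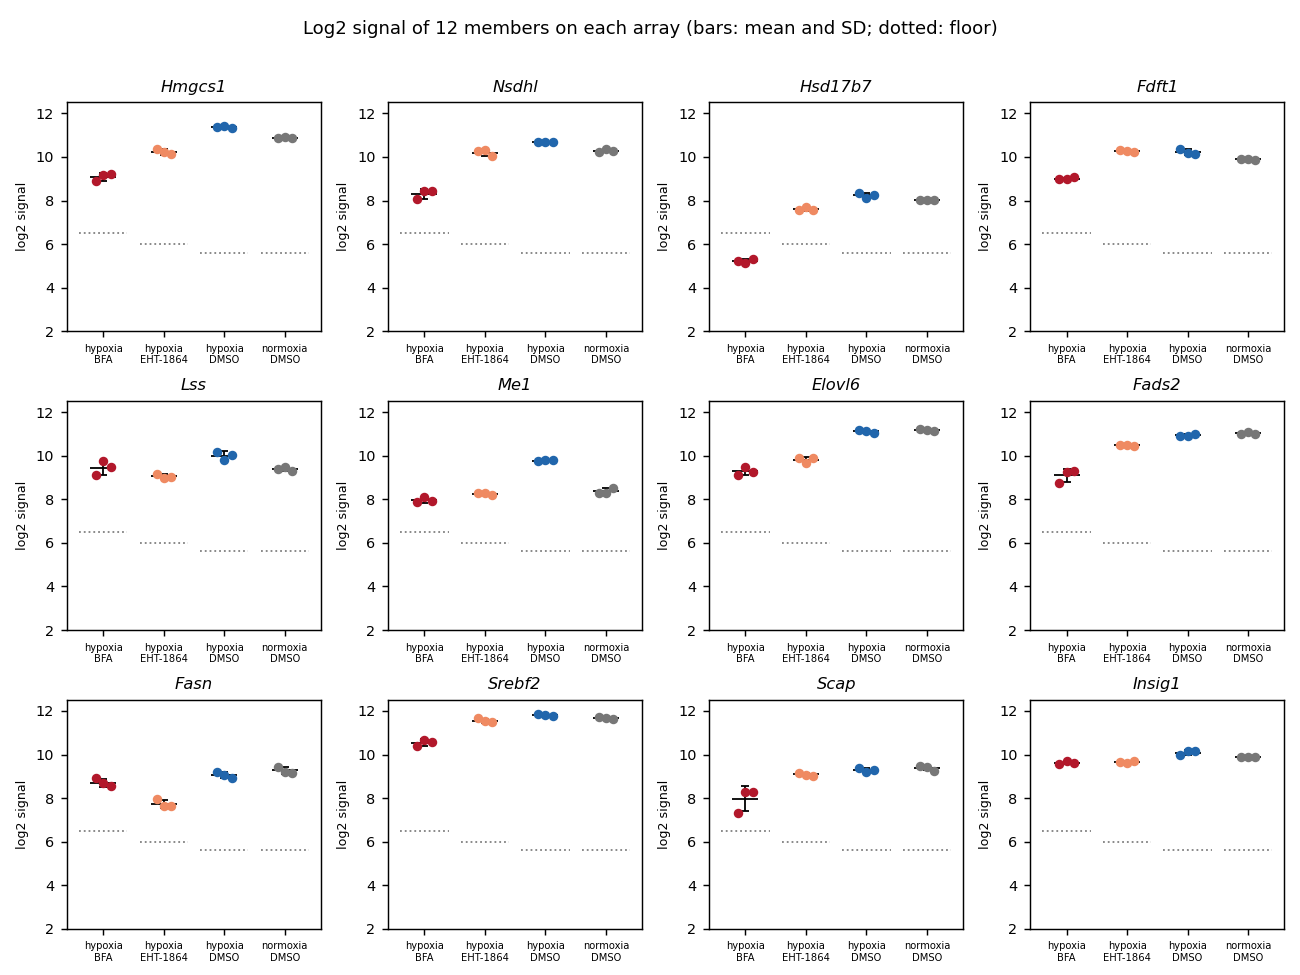
Log2 signal (y axis) of 12 members on each of the 12 arrays, by group (x axis; BFA, EHT-1864 and DMSO in hypoxia, then DMSO in normoxia). Points are arrays, bars the mean and SD of 3 arrays, and dotted lines the mean floor of the group. Hsd17b7 lies below the floor with BFA, Fdft1 is low with BFA alone, Fasn is low with EHT-1864, and Me1 is high with DMSO in hypoxia.

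Of the 10 measured fatty acid enzymes, 9 were called lower with BFA than with DMSO in hypoxia and none higher, with a median difference of -1.06 (-0.32 with equal-spread scaling). Elovl6, Fads2 and Me1 were called lower under all 4 normalizations. With equal-spread scaling, 3 were called lower and 2 higher (Fasn 0.40 and Elovl5 0.43).

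Elovl6, which extends palmitate, read 9.10, 9.47 and 9.27 with BFA, 9.90, 9.66 and 9.88 with EHT-1864, 11.20, 11.12 and 11.04 with DMSO in hypoxia and 11.20, 11.17 and 11.13 in normoxia. The compounds stood apart from both DMSO groups, and the fall with BFA was -1.84 ± 0.12 (3.58-fold, adjusted p = 1.38e-07). Fads2, the desaturase at the entry to polyunsaturated fatty acids, read 8.76, 9.27 and 9.29 with BFA, 10.49, 10.49 and 10.42 with EHT-1864, 10.92, 10.89 and 10.99 with DMSO in hypoxia and 10.99, 11.07 and 11.02 in normoxia. It fell by 1.83 ± 0.14 with BFA (3.54-fold, adjusted p = 3.84e-07). Me1 read 7.87, 8.11 and 7.93 with BFA, against 9.74, 9.80 and 9.78 with DMSO in hypoxia. It fell by 1.80 ± 0.12 (3.49-fold, adjusted p = 8.5e-08).

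Scd1, the stearoyl-CoA desaturase, differed by -1.29 ± 0.11, Fads1, a further desaturase, by -1.07 ± 0.12, Acly, which makes cytosolic acetyl-CoA from citrate, by -1.05 ± 0.11, Acss2, which makes it from acetate, by -0.87 ± 0.19, and Acaca, acetyl-CoA carboxylase, by -0.71 ± 0.18. None of these 5 was called with equal-spread scaling. For Acss2 and for Acaca, 2 of 3 BFA arrays exceeded the floor. Elovl5, an elongase of polyunsaturated fatty acids, differed by -0.53 ± 0.14. Whether RNA of the close relative Scd2 reaches the Scd1 probes was not tested. Fasn, the fatty acid synthase, read 8.91, 8.68 and 8.55 with BFA, 7.95, 7.62 and 7.63 with EHT-1864, 9.18, 9.04 and 8.94 with DMSO in hypoxia and 9.44, 9.21 and 9.15 in normoxia. Its difference with BFA was -0.34 ± 0.14 (adjusted p = 0.0621), which passed the threshold when BFA array 1 was left out (-0.44, adjusted p = 0.0276).

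Among the regulators and transport genes, 4 of 6 were called lower with BFA and 1 higher. Under equal-spread scaling 2 were called lower (Stard4 and Scap) and 2 higher (Insig1 and Abca1). Srebf2 itself read 10.39, 10.67 and 10.58 with BFA, 11.65, 11.52 and 11.48 with EHT-1864, 11.87, 11.82 and 11.78 with DMSO in hypoxia and 11.70, 11.66 and 11.62 in normoxia. The BFA arrays stood below all others, and with BFA it fell by 1.27 ± 0.11 (2.42-fold, adjusted p = 1.49e-06), a call lost with equal-spread scaling (-0.12). Scap read 7.30, 8.29 and 8.30 with BFA, 9.16, 9.07 and 9.02 with EHT-1864, 9.37, 9.18 and 9.27 with DMSO in hypoxia and 9.45, 9.42 and 9.26 in normoxia. It fell with BFA by 1.31 ± 0.21 (adjusted p = 0.000265), and BFA array 1 was about 1 unit below the other BFA arrays.

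Stard4, which carries sterols between membranes, read 5.46, 5.61 and 5.88 with BFA, all below the floor, against 6.86, 6.74 and 6.71 with EHT-1864, 7.21, 7.21 and 7.12 with DMSO in hypoxia and 6.72, 6.79 and 6.91 in normoxia. It was at least 1.61-fold lower with BFA than with DMSO in hypoxia (adjusted p = 7.6e-07). Insig1, an ER anchor of SCAP and a sensitive SREBP target, read 9.55, 9.70 and 9.60 with BFA, 9.67, 9.62 and 9.68 with EHT-1864, 9.96, 10.15 and 10.15 with DMSO in hypoxia and 9.89, 9.89 and 9.87 in normoxia. It fell with BFA by 0.46 ± 0.11 (limma adjusted p = 0.00295). The fall was not called with quantile normalization (-0.22, adjusted p = 0.0918). With equal-spread scaling Insig1 was called higher with BFA (0.45, adjusted p = 0.00843). Insig2, the second anchor, read 5.51, 6.21 and 6.08 with BFA, 5.63, 5.04 and 5.51 with EHT-1864, 6.12, 5.94 and 5.81 with DMSO in hypoxia and 5.82, 5.27 and 5.53 in normoxia. It was not called in any of the 6 comparisons and lay above the floor on 4 of 12 arrays.

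Abca1, a sterol exporter driven by the LXR receptors, was below the floor on all 12 arrays. It read 4.72, 4.80 and 3.75 with BFA, 4.23, 4.50 and 3.73 with EHT-1864, 2.74, 2.49 and 2.82 with DMSO in hypoxia and 3.59, 2.54 and 2.92 in normoxia. It was called higher with each compound than with DMSO in hypoxia (adjusted p = 0.000442 with BFA and 0.00303 with EHT-1864), but no fold is given for values below the floor.

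EHT-1864 was then compared with DMSO in hypoxia. It lowered 12 of 16 sterol enzymes, 8 of 10 fatty acid enzymes and 2 of 6 regulators and transport genes. Over all clusters, 17.4% were called lower and 13.0% higher, and in the separate fit of those above the floor 36.4% were called lower. The branch medians were -0.49, -0.52 and -0.34, against 0.06 over all clusters and -0.14 over those above the floor. With equal-spread scaling they were -0.0834, -0.16 and 0.17, so that of the regulators and transport genes turned sign. With equal-spread scaling, 4 sterol enzymes, 3 fatty acid enzymes and none of the regulators were called lower, and 2 members with levels above the floor were called higher (Fdft1 0.58 and Srebf2 0.42). Under that scaling 11.6% of all clusters were called lower.

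The 7 members lower under all 4 normalizations were Hmgcs1, Sqle, Lss, Dhcr7, Fasn, Elovl6 and Me1. Me1 read 8.28, 8.29 and 8.19 with EHT-1864, against 9.74, 9.80 and 9.78 with DMSO in hypoxia, and it fell by 1.52 ± 0.12 (2.87-fold, limma adjusted p = 1.8e-06). Fasn fell by 1.32 ± 0.14 (2.50-fold, adjusted p = 2.91e-05) and Elovl6 by 1.31 ± 0.12 (2.47-fold, adjusted p = 1.16e-05), with no overlap between the groups for either. Sqle averaged 8.52 with EHT-1864, against 9.82 with DMSO in hypoxia, a difference of -1.30 ± 0.14. Hmgcs1 fell by 1.15 ± 0.12, Dhcr7 by 1.01 ± 0.17 and Lss by 0.93 ± 0.16. For Lss, every EHT-1864 array read below every array of DMSO in hypoxia.

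A further 15 members were called lower with EHT-1864 in the deposited values but not under every normalization. Their differences ran from -0.76 ± 0.14 for Idi1 to -0.30 ± 0.11 for Scd1. Msmo1, Nsdhl, Scd1, Fads1, Fads2 and Insig1 turned to differences of 0.07, 0.10, 0.30, 0.15, 0.14 and 0.09 with equal-spread scaling. The calls of 8 of the 22 were lost when some single array was left out: Scd1 in 10 of 12 removals, Pmvk in 9, Msmo1 in 8, Stard4 in 5, Mvk, Fads1 and Fads2 in 4 each, and Nsdhl in 1 (EHT-1864 array 3, adjusted p = 0.0666). The highest adjusted p of any of these removals was 0.143, for Scd1.

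Fdft1 differed by 0.04 ± 0.11 between EHT-1864 and DMSO in hypoxia (95% interval -0.20 to 0.27), Ebp by -0.08 ± 0.12, Cyp51 by -0.19 ± 0.11 and Fdps by -0.33 ± 0.14, and none of the 4 was called. Acss2 (-0.49 ± 0.19), Acaca (-0.46 ± 0.18), Srebf2 (-0.27 ± 0.11) and Scap (-0.19 ± 0.21) were not called either. Acss2 passed the threshold without BFA array 2 or 3, Acaca without BFA array 3, Fdps without BFA array 2 and Srebf2 without BFA array 1, each through the shared estimate of spread. Insig2 was below the floor on all EHT-1864 arrays, so no difference is given for it.

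**Figure D3:**
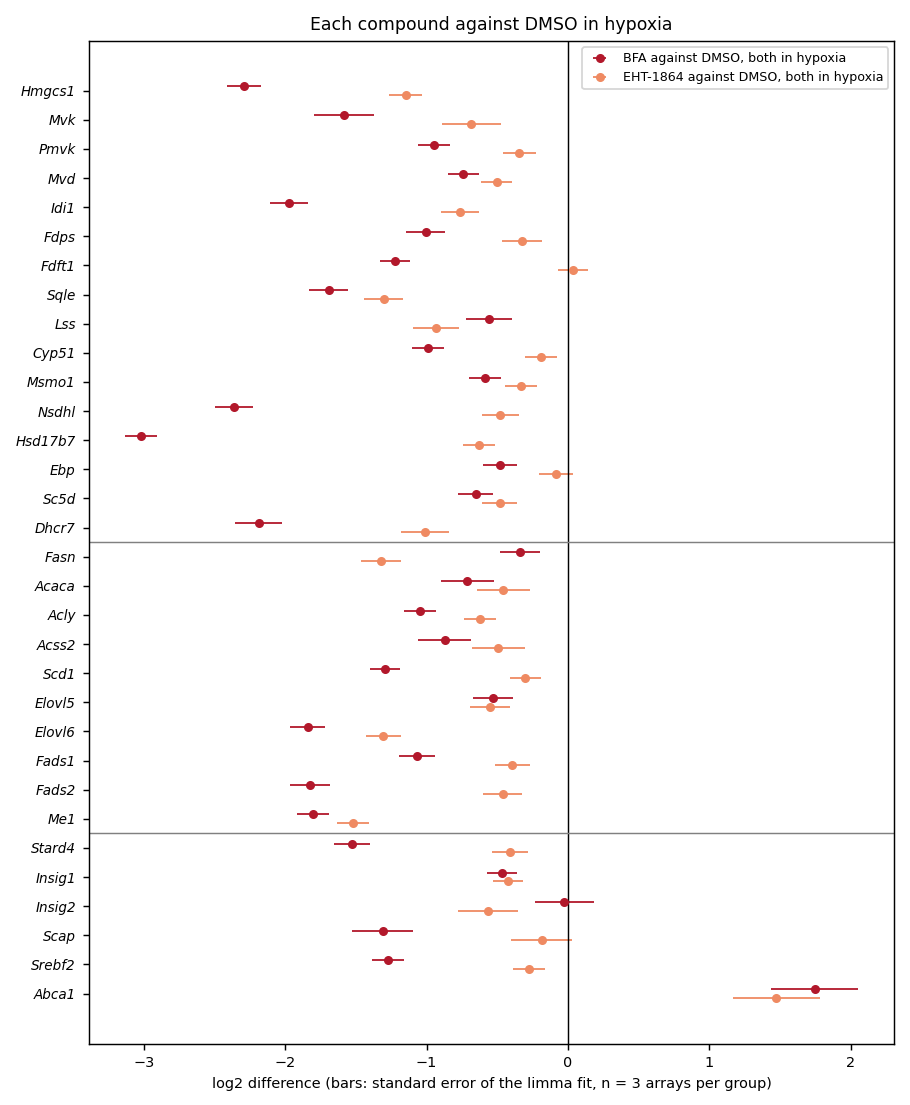
Log2 difference of each compound from DMSO in hypoxia (x axis; bars are the standard error of the limma fit, n = 3 arrays per group) for the 32 members (rows; sterol enzymes, fatty acid enzymes, then regulators and transport). Both comparisons share the DMSO arrays. BFA differences lie further from 0 for most sterol enzymes, Fasn lies further from 0 with EHT-1864, and several small differences turn sign with equal-spread scaling. Hsd17b7, Mvk and Stard4 lay below the floor with BFA, Insig2 with both compounds and Abca1 on all arrays, so those points are not measured folds.

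The compounds were also compared with each other, where the DMSO arrays enter the shared estimate of spread but not the difference. BFA was lower than EHT-1864 for 12 of 16 sterol enzymes, 5 of 10 fatty acid enzymes and 3 of 6 regulators and transport genes, and higher for Fasn. Over all clusters, 19.6% were called lower and 16.9% higher, and in the separate fit of those above the floor 39.8% were called lower. The branch medians were -0.74, -0.40 and -0.52 (-0.64, -0.40 and -0.16 with members below the floor at their bounds), against 0.06 over all clusters and -0.15 over those above the floor. Of the 20 lower calls, 15 held under all 4 normalizations: Hmgcs1, Mvk, Pmvk, Idi1, Fdps, Fdft1, Cyp51, Nsdhl, Hsd17b7, Dhcr7, Scd1, Fads2, Stard4, Scap and Srebf2.

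Hsd17b7 was at least 2.17-fold lower with BFA than with EHT-1864 (limma adjusted p = 2.02e-08). Nsdhl differed by -1.88 ± 0.13 (adjusted p = 2.71e-07), Fads2 by -1.36 ± 0.14 and Fdft1 by -1.26 ± 0.11 (adjusted p = 1.32e-06). For Fdft1 the BFA arrays lay between 8.97 and 9.06 and the EHT-1864 arrays between 10.21 and 10.30. Idi1, Dhcr7 and Hmgcs1 differed by -1.21 ± 0.14, -1.17 ± 0.17 and -1.14 ± 0.12, and Scap by -1.12 ± 0.21, where Idi1 exceeded the floor on 1 of 3 BFA arrays. Srebf2 averaged 10.55 with BFA and 11.55 with EHT-1864 (adjusted p = 1.5e-05). Fasn differed by 0.98 ± 0.14 the other way (1.97-fold higher with BFA, adjusted p = 0.000129), and this held under all 4 normalizations.

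A difference between the compounds was not called for 11 members. Insig1 differed by -0.04 ± 0.11 and Elovl5 by 0.02 ± 0.14, although both were called higher with BFA under equal-spread scaling (0.36 and 0.44). Lss differed by 0.38 ± 0.16 (limma adjusted p = 0.0862) and passed the threshold without BFA array 1 (0.54, adjusted p = 0.0107). It was also called higher with BFA under quantile normalization (0.53, adjusted p = 0.0123) and equal-spread scaling (0.76, adjusted p = 0.000576). Me1 differed by -0.28 ± 0.12 (adjusted p = 0.071) and passed it without BFA array 2. The call for Sqle (-0.39 ± 0.14) was lost in 9 of 12 removals of 1 array and that for Ebp (-0.40 ± 0.12) in 3 of 12. Insig2 lay below the floor with both compounds, so no difference is given. Without BFA array 3, Acss2 was called lower with BFA (-0.57, adjusted p = 0.0269).

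**Figure D4:**
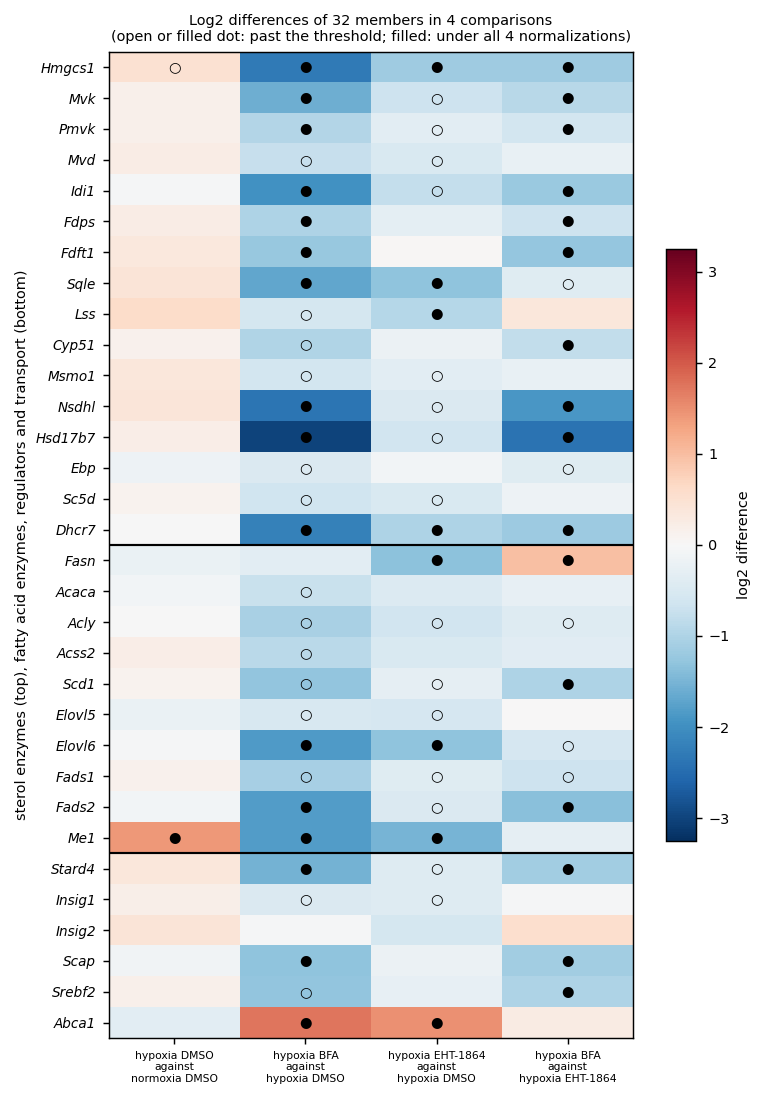
Log2 differences (colour) of the 32 members (rows) in 4 comparisons (columns). A dot marks adjusted p under 0.05 and a filled dot the same call under all 4 normalizations. Filled dots stand at 15 falling members with BFA, 7 with EHT-1864 and 15 between BFA and EHT-1864, where Fasn is the 1 filled dot of a higher level. Hsd17b7, Mvk and Stard4 lay below the floor with BFA and Abca1 on all arrays, so their colours are not measured folds.

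Each compound in hypoxia was set against normoxia with DMSO. BFA was lower for 14 of 16 sterol enzymes, 10 of 10 fatty acid enzymes and 3 of 6 regulators and transport genes. Of all clusters, 24.0% were called lower and 23.0% higher, and in the separate fit of those above the floor 47.5% were called lower. Hsd17b7 was at least 2.87-fold lower than in normoxia (adjusted p = 2.35e-09), Dhcr7 differed by -2.21 ± 0.17, Idi1, near the floor with BFA, by -2.00 ± 0.14, Nsdhl by -1.97 ± 0.13, Fads2 by -1.92 ± 0.14 and Elovl6 by -1.89 ± 0.12. Lss (0.05 ± 0.16) and Msmo1 (-0.21 ± 0.11) were not called. With equal-spread scaling, 14 members in place of 27 were called lower, and 4 in place of 1 higher. Under that scaling 19.1% of all clusters were called lower. The Me1 call (-0.40 ± 0.12) was lost without array 3 of normoxia (adjusted p = 0.0581) and with quantile normalization (-0.12), and the value turned to 0.08 with equal-spread scaling, where Fasn and Elovl5 stood at 0.07 each.

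EHT-1864 was lower than normoxia for 6 of 16 sterol enzymes, 6 of 10 fatty acid enzymes and none of the regulators, against 14.3% of all clusters called lower and 8.1% higher. In the separate fit of clusters above the floor, 32.7% were called lower, a share close to that of the sterol enzymes. The sterol count comes from the fit of all clusters, so these shares rest on unlike adjustments. Fasn (-1.53 ± 0.14), Elovl6 (-1.35 ± 0.12), Dhcr7 (-1.03 ± 0.17), Sqle (-0.88 ± 0.14), Idi1 (-0.79 ± 0.14) and Elovl5 (-0.77 ± 0.14) were called lower under all 4 normalizations. Fdft1 was called higher than normoxia in all 4 (0.37 ± 0.11, adjusted p = 0.0231), but this call was lost in 5 of 12 removals of 1 array, each of a normoxia array or of EHT-1864 array 1 or 2. The calls of Sc5d (10 removals), Acaca (8), Hsd17b7 (5) and Abca1 (3) were also lost in some of the 12. Me1 did not differ by a called amount from normoxia (-0.12 ± 0.12).

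In the order of the group means, BFA had the lowest mean for 27 of 32 members and DMSO in hypoxia the highest for 20. For 17 members the means ran, low to high, BFA, EHT-1864, normoxia and DMSO in hypoxia, and for 8 BFA, EHT-1864, DMSO in hypoxia and normoxia. In the first order normoxia and DMSO in hypoxia were called apart for Me1 and Hmgcs1 only. Normoxia was highest for 6 of 10 fatty acid enzymes and 3 of 16 sterol enzymes, and for none of these 9 did the 2 DMSO groups differ by a called amount. Lss, Fasn and Elovl5 were the enzymes with the lowest mean under EHT-1864. The orders were not counted over all clusters, so how common they are outside the list is not known here. Over clusters above the floor, the median difference from DMSO in hypoxia was -0.28 with BFA and -0.14 with EHT-1864.

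Counted across both compounds against DMSO in hypoxia, comparisons that share their DMSO arrays, 21 members were called lower with both, 8 with BFA and not EHT-1864 (Cyp51, Ebp, Fdft1, Fdps, Acaca, Acss2, Scap and Srebf2), and Fasn with EHT-1864 and not BFA. Of these 8, Cyp51, Ebp, Fdft1, Fdps, Scap and Srebf2 were also lower with BFA than with EHT-1864, and Acaca and Acss2 were not called apart. Of the 21, 14 were lower with BFA than with EHT-1864 and 7 were not called apart (Lss, Msmo1, Mvd, Sc5d, Elovl5, Me1 and Insig1). These joint patterns were not counted over all clusters, so no share stands beside them. Taken singly, 24.6% of all clusters were called lower with BFA and 17.4% with EHT-1864. In the separate fit of clusters above the floor, the shares were 47.9% and 36.4%.

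**Figure D5:**
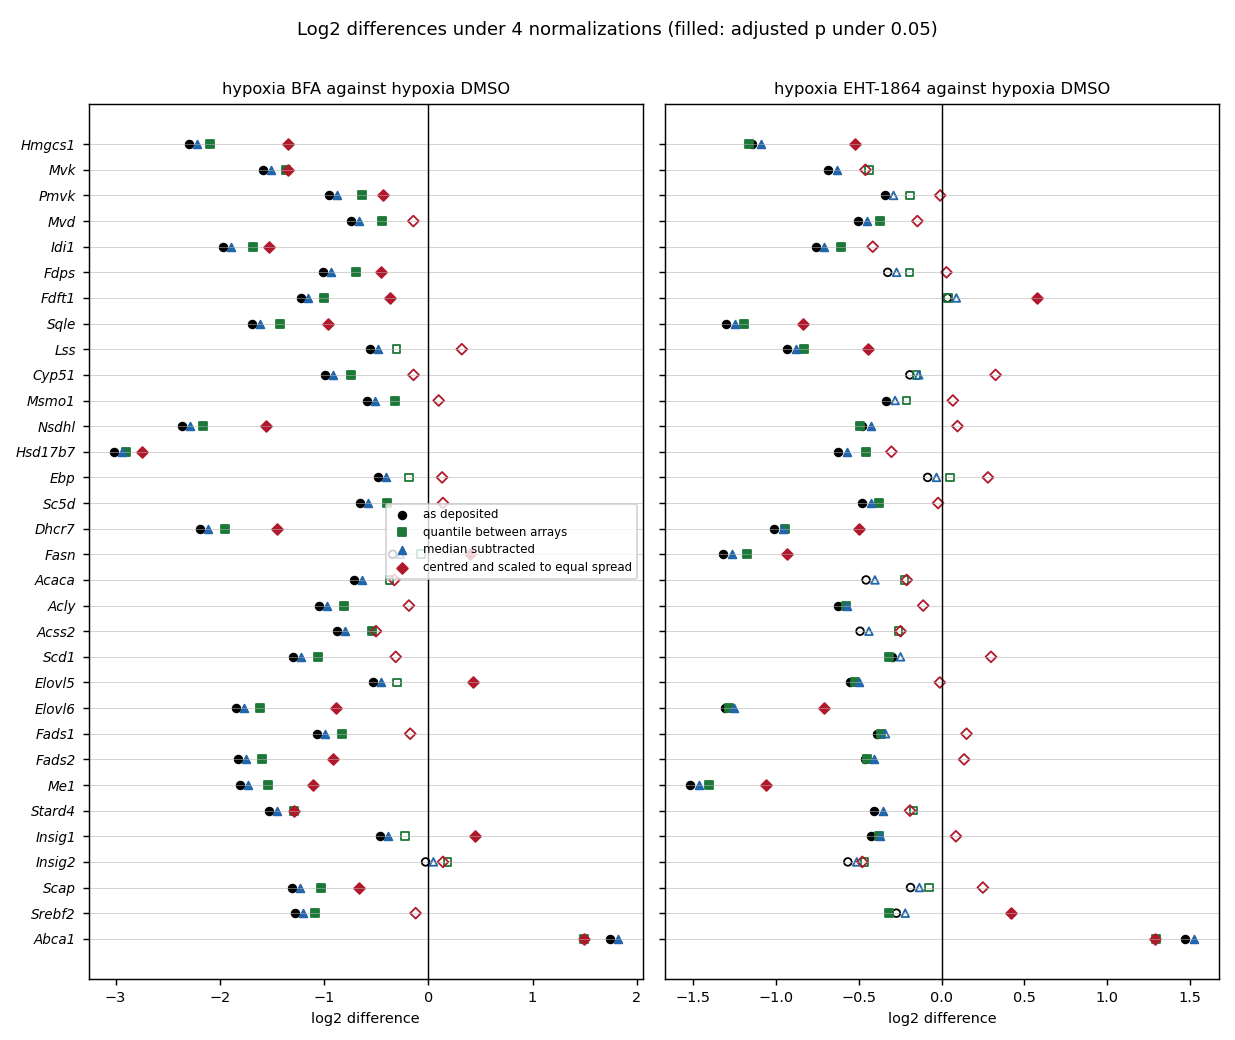
Log2 differences (x axis) of the 32 members (rows) with BFA (left) and EHT-1864 (right) against DMSO in hypoxia, as deposited (black), after quantile normalization (green), after median subtraction (blue) and after centring and scaling to equal spread (red). Filled symbols have an adjusted p under 0.05. The counts of members called lower are 29, 24, 29 and 15 with BFA and 22, 19, 18 and 7 with EHT-1864.

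Genes around the pathway were counted from 5 lists, none of which had a called gene between hypoxia and normoxia with DMSO. Their counts stand against 24.6% of all clusters called lower and 26.1% higher with BFA, and 17.4% lower and 13.0% higher with EHT-1864. In the separate fit of clusters above the floor, 47.9% were called lower with BFA and 36.4% with EHT-1864. Under equal-spread scaling, 19.1% of all clusters were called lower with BFA and 11.6% with EHT-1864. Called higher there were 6898 of 22206 clusters with BFA, in place of 5799, and 4267 with EHT-1864, in place of 2893. Of 12 measured genes of SREBP processing and turnover, 3 rose and 3 fell with BFA, and none rose and 5 fell with EHT-1864. The BFA counts are near the shares over all clusters, and with equal-spread scaling 9 rose and 2 fell with BFA and 3 rose and 4 fell with EHT-1864. Rnf145, an ubiquitin ligase of the ER, averaged 10.12 with BFA, 7.57 with EHT-1864 and 8.93 with DMSO in hypoxia, differing from DMSO by 1.19 ± 0.17 with BFA (adjusted p = 7.63e-05) and -1.36 ± 0.17 with EHT-1864 (adjusted p = 7.22e-05). Paqr3, a Golgi protein that can tether SCAP, rose with BFA by 1.52 ± 0.20, and Ufd1, part of the machinery that extracts proteins from the ER for degradation, by 0.71 ± 0.13. Mbtps1, the site-1 protease of SREBP, fell with EHT-1864 by 0.88 ± 0.13. Trim21 and Fbxw7 were called lower with BFA, and Erlin2 and Fbxw7 with EHT-1864, with no size given here. All calls named for this list held under all 4 normalizations.

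Of 25 further genes of fatty acid and glycerolipid supply, 17 fell and 2 rose with BFA, and 11 fell and 2 rose with EHT-1864. Under equal-spread scaling these were 9 and 6 with BFA and 6 and 7 with EHT-1864. Slc25a1, the mitochondrial citrate carrier, fell by 1.30 ± 0.13 with BFA and by 0.56 ± 0.13 with EHT-1864, the first under all 4 normalizations. Elovl7, an elongase, was at least 2.85-fold lower with BFA (adjusted p = 2.42e-07). Fads3 rose with BFA by 1.97 ± 0.14 (adjusted p = 2.36e-07) and was at least 1.13-fold lower with EHT-1864, both under all 4 normalizations. Lpin1, a phosphatidate phosphatase, fell by 0.70 ± 0.13 with BFA and rose by 0.81 ± 0.13 with EHT-1864, and the rise held under all 4 normalizations.

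Of 13 genes of mitochondrial fatty acid oxidation, 8 fell with BFA and 4 with EHT-1864, and none rose. With equal-spread scaling 4 fell and 4 rose with BFA and 2 fell and 3 rose with EHT-1864. Of 14 genes of LXR targets, sterol storage and export, 4 fell and 3 rose with BFA, and 4 fell and 2 rose with EHT-1864, with the BFA counts near the shares over all clusters. With equal-spread scaling 2 fell and 3 rose with BFA, and 3 fell and 4 rose with EHT-1864. Lpcat3, a phospholipid acyltransferase, fell by 1.69 ± 0.18 with BFA and by 1.71 ± 0.18 with EHT-1864, and Osbp, an oxysterol-binding transfer protein, rose by 0.68 ± 0.12 with BFA and fell by 0.79 ± 0.12 with EHT-1864, all under the 4 normalizations. Of 8 genes of the isoprenoid and polyprenol branches, which draw on the mevalonate pathway, 1 fell and 3 rose with BFA, and 4 fell and 2 rose with EHT-1864. With equal-spread scaling none fell with either compound, and 4 rose with BFA and 3 with EHT-1864. Nus1, a subunit of the enzyme that makes dolichol precursors, rose with both, by 0.66 ± 0.13 with BFA and 0.47 ± 0.13 with EHT-1864.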

How the data were processed

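RNA of 12 cultures in 4 groups of 3 was measured on Clarion S mouse arrays; per the labels' design text the cultures were independent, but equal numbers are not said to share one. Per the submitters' processing notes, the deposited log2 values were made by the authors with RMA in Affymetrix Expression Console, which puts the arrays on a common scale, and differences in the amount of RNA per cell are lost. The sources used here give no version, setting or genome build. Of 28846 rows, 6640 controls were left out and 22206 transcript clusters tested, of which 19572 had 1 symbol in the platform annotation (all matched by Entrez number, 0 updated) and 2634 had none given. A gene stood by its brightest cluster. No member had several.

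All arrays were fitted together with limma 3.58.1 (R 4.3.3; lmFit and eBayes, residual df 8, prior df 4.87), with Benjamini-Hochberg adjustment over all clusters of a comparison and a threshold of 0.05. The p-values measure the spread between arrays, which may be partly technical, and the number of arrays limits the precision. The fit was tested on simulated data. Values on every array are given for the 3 members of each branch with the smallest adjusted p for BFA against DMSO in hypoxia, for the smallest of each branch in the comparisons of EHT-1864 with DMSO in hypoxia, BFA with EHT-1864 and hypoxia with normoxia, for Insig1, Insig2, Srebf2, Scap and Abca1, and for members called against most of their branch. The members, lists, markers and this rule were chosen with earlier results of these data known. Promoters were taken from RefSeq by symbol. Alternatives were 3 other normalizations, 3 filters on dim clusters (1 of them chosen after seeing the data), a trended variance, array weights, a fit of the 6 arrays compared, the mean over a gene's clusters, the replicate number as a block and leaving out each array.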

Additional observations from a re-analysis of the deposited data

How the results depend on the processing

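For the 32 members and 6 comparisons, 4404 values under alternatives were compared with those reported: 4093 kept the call or its absence, 177 lost the call, 112 gained one with the same sign, and 22 changed sign while called as reported or under the alternative. Among the 4093, 54 values called under neither also changed sign, 24 of them with equal-spread scaling and 9 with quantile normalization. The 22 all came from centring and scaling to equal spread of each array, which also moved the share of calls that are lower from 48.5% to 38.1% over all clusters for BFA against DMSO in hypoxia, from 57.2% to 37.7% for EHT-1864 against DMSO in hypoxia and from 63.8% to 44.1% (53.1% with quantile normalization) for EHT-1864 against normoxia. The 22 were, for BFA against DMSO in hypoxia, Lss 0.32, Msmo1 0.10, Ebp 0.13, Sc5d 0.14, Fasn 0.40, Elovl5 0.43 and Insig1 0.45; for EHT-1864 against DMSO in hypoxia, Msmo1 0.0685, Nsdhl 0.10, Scd1 0.30, Fads1 0.15, Fads2 0.14, Insig1 0.0868 and Srebf2 0.42; for BFA against EHT-1864, Insig1 0.36; for BFA against normoxia, Msmo1 0.34, Sc5d 0.11, Fasn 0.0703, Elovl5 0.0663, Me1 0.0832 and Insig1 0.49; and for EHT-1864 against normoxia, Srebf2 0.38. This scaling gives each array the same median absolute deviation, not the same SD, and the cause of its effect was not tested.

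Equal-spread scaling also changed the number of called sterol enzymes from 16 to 10 for BFA against DMSO in hypoxia, from 12 to 5 for EHT-1864 against DMSO in hypoxia and from 7 to 4 for EHT-1864 against normoxia. It changed the called fatty acid enzymes from 9 to 5, from 8 to 3 and from 6 to 3 in those comparisons and from 10 to 4 for BFA against normoxia, and the called regulators from 3 to 5 for BFA against EHT-1864 and from 1 to 2 for EHT-1864 against normoxia. All counts in this paragraph take both directions together. Under this scaling, the 5 sterol enzymes with EHT-1864 against DMSO in hypoxia were 4 lower and 1 higher. The 5 fatty acid enzymes with BFA against DMSO in hypoxia were 3 lower and 2 higher. The 5 regulators for BFA against EHT-1864 were also 3 lower and 2 higher. Called sterol enzymes in hypoxia against normoxia, 1 as reported, were 2 with quantile normalization or without the dimmest 25%, 0 with median subtraction or equal spread, 3 in the fit of 6 arrays, and 6 with a log2 value of at least 6, above the floor, with trended variance or with array weights. Regulators called there were 0 as reported and 1 with the log2 filter, the floor filter or array weights. Trended variance gave 5 regulators for EHT-1864 against DMSO in hypoxia and 2 for EHT-1864 against normoxia, in place of 3 and 1. Leaving out 1 array gave 0 to 2 sterol enzymes in hypoxia against normoxia, 5 to 9 fatty acid enzymes and 2 to 5 regulators for EHT-1864 against DMSO in hypoxia, and 4 to 8 sterol enzymes and 0 to 1 regulators for EHT-1864 against normoxia.

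With the replicate number as a block, 0 sterol enzymes were called in hypoxia against normoxia, in place of 1, and no other branch count moved by over 1.5 times. Equal numbers did not pair the arrays: deviations from group means correlated at -0.18 to 0.17 in 18 same-number pairs (1 over 0.1), and 3 of 12 arrays correlated best with their own number. The mean over a gene's clusters changed nothing, since no member had several.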
